A study of Mus musculus with 4 samples.

Results

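Imprinted genes were followed across 2 systems of differentiating mouse red cell precursors. The list held 44 genes known to be imprinted in mice, and a gene was measured when the array carried at least 1 feature annotated to that gene alone, older symbols included. This was so for 38 of the 44, among 19938 genes measured in all, and each of the 38 had a single such feature. Snrpn, Ube3a and Gnas had only a feature shared with other annotated genes and were not used, and no feature was annotated to H19, Zrsr1 or Slc22a3.

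In an imprinted gene the copy inherited from one parent is silenced, mostly through DNA methylation laid down in the egg or the sperm at a control region, and the other copy is expressed. Many lie in clusters in which a single control region governs several neighbours, some of them expressed from the maternal and some from the paternal copy. A number of them are known for their roles in placenta, brain and fetal growth, and several are imprinted only in such tissues. The array measures the summed RNA of both copies, so no value below tells which parental copy was active, and the parental copy named for a gene is background from other mouse tissues.

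MEL cells, an erythroleukemia line, were kept in serum medium with glutamine and puromycin and set to differentiate with 17b-estradiol for 48 hours. They were compared with ES-EP cells, an erythroid progenitor line made from embryonic stem cells. These grew with erythropoietin, IGF-1, dexamethasone, stem cell factor and mercaptoethanol, and differentiated for 24 hours with erythropoietin, insulin, mifepristone and mercaptoethanol. Each group had 2 cultures, labelled A and B, with 1 array each, and all were described as differentiating. Cell origin, inducer, medium and hours differ together between the groups and cannot be told apart. The labels do not say whether cultures A and B were grown separately, so a p-value covers no more than the spread of A and B, which may be technical.

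Values are log2 signals made by RMA (robust multi-array average), a method that corrects background, equalises the arrays and summarises the probes of a feature. The arrays of a group correlated with r of 0.997 for the MEL pair and 0.998 for the ES-EP pair, against 0.948 to 0.949 between groups. Of the red cell markers that check the labels, Gata1, Klf1, Tal1, Epor and Alas2 had group means between 9.04 and 12.40. Gata1 and Epor passed as higher in MEL, with MEL minus ES-EP differences of 0.46 and 0.42. Klf1 (-0.81), Tal1 (-0.55) and Alas2 (-1.33) passed as lower. Slc4a1, the band 3 anion exchanger, averaged 7.04 in MEL cells, far under its 12.48 in ES-EP cells. Group means stayed at or under 5.88 for 6 pluripotency markers and at or under 5.47 for 3 trophoblast markers. Of 6 stromal markers 1 passed as higher in MEL and 3 as lower, with means of 3.39 to 6.98. Of 5 neural markers 1 passed as higher (the synaptic gene Syp) and 3 as lower. The lower ones included Tubb3, a neuronal tubulin, with 5.25 in MEL, against 8.56 in ES-EP cultures. The part of cells with such markers in the results below was not tested, and in whole cultures fewer cells of a type and less RNA per cell cannot be told apart.

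A difference is given as MEL minus ES-EP on the log2 scale with the standard error of a limma fit over all 28944 features. It passed when the p-value, adjusted over all features by the Benjamini-Hochberg method, was under 0.05. Of the 38 imprinted genes 4 passed as higher in MEL, 14 passed as lower and 20 did not pass. The background over all measured genes was 21.8% higher and 36.9% lower. Among imprinted genes the shares were 10.5% and 36.8%, so the lower share lay near the background. When a change of at least 2-fold was also required, 0 imprinted genes were higher and 3 were lower, against 7.38% and 4.93% of all genes. At an unadjusted p under 0.05 with no fold criterion, limma gave 4 higher and 16 lower imprinted genes, beside 4604 higher and 8165 lower of all 19938 genes. The median difference of the imprinted genes was -0.16, and that of all genes was -0.14. After quantile normalization or cyclic loess, which move the median of all genes to -0.02 and 0.02, 7 imprinted genes passed as higher and 8 as lower under either scaling. Of all genes 26.7% were then higher and 28.6% lower after quantile normalization, and 29.0% and 24.5% after cyclic loess.

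**Figure D1:**
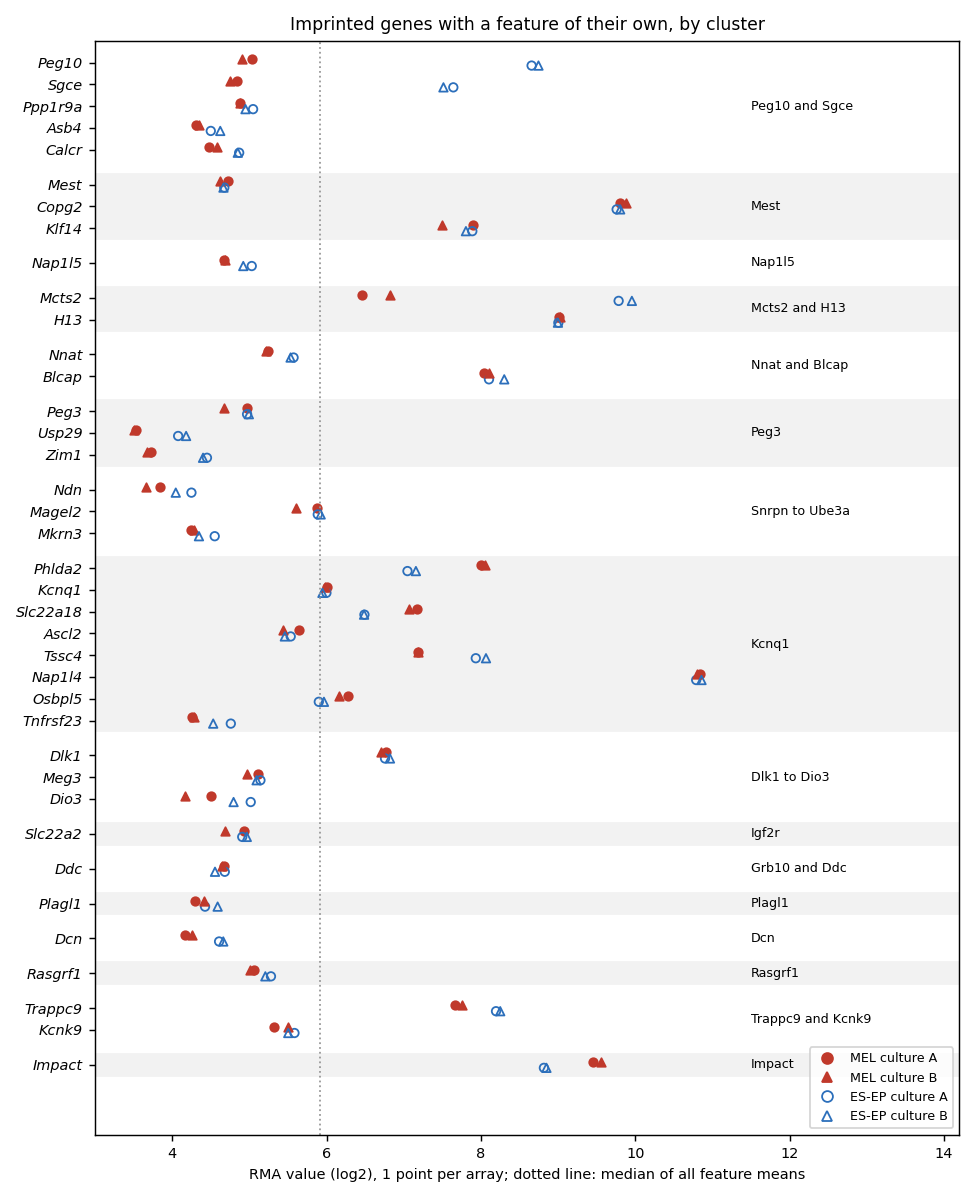
RMA values (log2, horizontal axis) of the 38 imprinted genes on each array, with MEL cultures as filled red symbols and ES-EP cultures as open blue symbols, circles for culture A and triangles for culture B, and genes grouped by imprinted cluster. The groups lie far apart for Peg10, Sgce and Mcts2, and close together for most other genes, many of which sit left of the dotted line, the median of all feature means (5.91).

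Peg10 and Sgce were both far lower in MEL cells, while the other measured genes of the list in their cluster differed little. These neighbours on proximal chromosome 6 are known to be expressed from the paternal copy and to lie head to head at a shared imprinting control region. Peg10, a gene derived from a retrotransposon and needed for the placenta, had values of 5.03 and 4.90 in MEL cultures A and B, against 8.66 and 8.74 in ES-EP cultures A and B. The MEL mean was 4.97 ± 0.09 and the ES-EP mean 8.70 ± 0.06 (SD, n = 2 each), a difference of -3.73 ± 0.09 (SE) or 13.3-fold lower (limma, adjusted p = 1.72e-07). Sgce, which encodes epsilon-sarcoglycan, a membrane protein of the dystrophin-linked complex, read 4.84 and 4.74 in MEL, against 7.64 and 7.51 in ES-EP cultures. The difference was -2.79 ± 0.09, or 6.91-fold lower (limma, adjusted p = 5.96e-07). In both genes the MEL cultures lay under the median level of all features and the ES-EP cultures well over it, with no overlap. RMA compresses low values, so such a fold can understate the change.

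The other listed genes of this cluster did not share that difference in size. Calcr, the calcitonin receptor gene, passed as slightly lower (-0.33 ± 0.08, adjusted p = 0.0125). Quantile normalization and cyclic loess shrank it to -0.11 and -0.12, and centring on array medians to -0.27, with the call lost. When ES-EP culture A or B was left out, the difference kept its size (-0.33 and -0.34), though the call was lost with the fewer arrays (limma, adjusted p = 0.0798 and 0.0658). Asb4, an ankyrin repeat gene, differed by -0.23 (95% interval -0.44 to -0.03, adjusted p = 0.0531, and 0.0473 when features with 1 gene alone were fitted), and Ppp1r9a, the gene of the actin-binding protein neurabin, by -0.12 (-0.32 to 0.08, adjusted p = 0.26). All 3 are known as maternally expressed and had means between 4.33 and 5.00 in either group. From Calcr to Dlx5 in chromosome order 22 genes were measured, 2 of them microRNA genes. Of the 22, 2 passed as higher and 10 as lower, beside 21.8% higher and 36.9% lower of all genes. Sgce and Peg10 were the 2 that were at least 2-fold lower. Casd1, which adjoins Sgce on the other side, passed as higher (0.58 ± 0.11, adjusted p = 0.00368), and Tfpi2, a protease inhibitor gene, passed as lower (-0.89 ± 0.11, adjusted p = 0.000358). Slc25a13, a mitochondrial carrier gene named after its value was seen, was 11.4-fold higher in MEL in the same stretch.

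**Figure D2:**
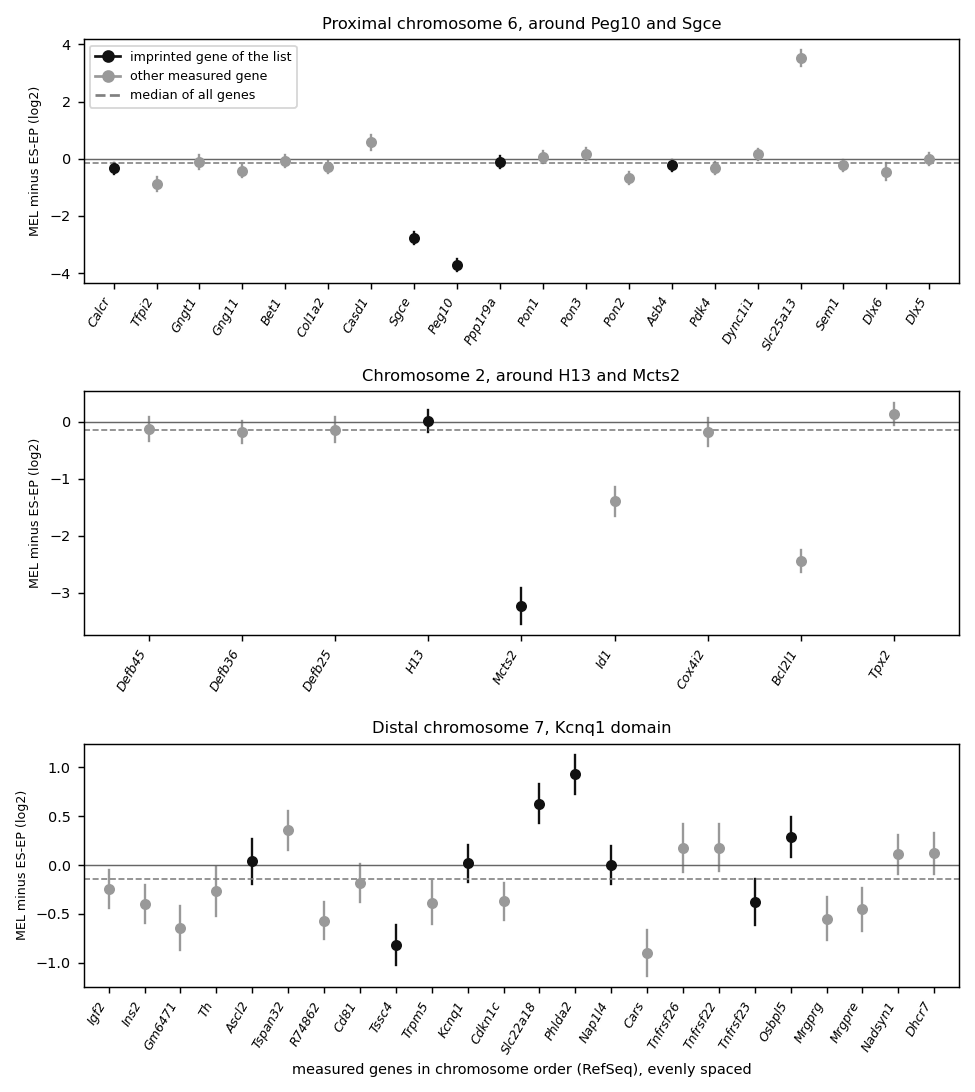
MEL minus ES-EP difference (log2, vertical axis, with 95% intervals) of the measured genes in chromosome order, evenly spaced, in 3 regions, with imprinted genes of the list in black and other genes in grey. MicroRNA genes are left out. Sgce and Peg10 stand at -2.79 and -3.73 between Casd1 and Ppp1r9a, Mcts2 stands at -3.23 beside its host H13 at 0.02, and the Kcnq1 domain holds differences in both directions, all under 2-fold.

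Mcts2 differed strongly while H13, the gene that contains it, did not pass. Mcts2 is an intronless retrocopy of the X-linked gene Mcts1, a translation factor gene, and lies in an intron of H13, which encodes a signal peptide peptidase. In mice Mcts2 is expressed from the paternal copy and full-length H13 RNA mostly from the maternal copy. The windows around both gene starts are shown because the adjoining genes differed so unlike each other, and that of Nap1l5 because it is a further retrocopy of the list that sits in a host intron and was measured. The sequences are RefSeq's (GRCm38.p6), running from 250 bases before to 50 after the start, 5′ to 3′ on the gene's strand. Capitals mark CG dinucleotides and every match, on either strand, of TGCCGC, the hexamer bound by the imprint-protecting factor ZFP57 when methylated.
Mcts2, plus strand, chr2:152686898-152687197: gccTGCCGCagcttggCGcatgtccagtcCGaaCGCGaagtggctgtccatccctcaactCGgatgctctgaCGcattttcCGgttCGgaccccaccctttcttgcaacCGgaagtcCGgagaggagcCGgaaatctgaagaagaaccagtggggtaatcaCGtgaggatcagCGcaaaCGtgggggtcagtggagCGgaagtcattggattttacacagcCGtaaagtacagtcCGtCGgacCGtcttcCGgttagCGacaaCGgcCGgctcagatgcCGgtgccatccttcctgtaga
H13, plus strand, chr2:152669211-152669510: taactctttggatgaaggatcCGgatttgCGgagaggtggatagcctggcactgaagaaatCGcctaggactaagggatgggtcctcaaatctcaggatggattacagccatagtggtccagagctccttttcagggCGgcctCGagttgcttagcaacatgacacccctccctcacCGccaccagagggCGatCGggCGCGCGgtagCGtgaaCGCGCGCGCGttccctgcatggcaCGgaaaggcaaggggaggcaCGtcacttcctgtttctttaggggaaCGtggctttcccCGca
Nap1l5, minus strand, chr6:58907077-58907376: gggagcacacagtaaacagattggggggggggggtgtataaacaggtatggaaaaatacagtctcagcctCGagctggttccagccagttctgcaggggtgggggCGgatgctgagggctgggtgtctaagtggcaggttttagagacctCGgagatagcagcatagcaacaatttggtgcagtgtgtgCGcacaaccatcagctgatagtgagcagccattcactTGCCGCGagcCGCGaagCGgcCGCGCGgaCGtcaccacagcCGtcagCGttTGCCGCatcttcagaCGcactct

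The Mcts2 window held 25 CG dinucleotides and 1 match of the hexamer, at bases 4 to 9. The H13 window held 21 and 0, and the Nap1l5 window 17 and 2, at bases 227 to 232 and 278 to 283. Of the list, 34 genes had a window, with a median of 16 CG dinucleotides in their 49 windows, 13 of which (26.5%) held the hexamer. Over all 32851 windows of the table the median was 7 CG dinucleotides, and 11.6% held the hexamer, which holds a CG itself, so both figures move with CG content. Some genes have several windows, Peg3 and Usp29 have overlapping ones, and Mest has overlapping windows that each held the hexamer. Counted by gene, 12 of the 34 held it in any window, beside 13.1% of the 27025 genes with windows. A match is a description of these letters and shows neither binding nor methylation in these cells.

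Mcts2 read 6.46 and 6.82 in MEL cultures A and B, against 9.78 and 9.96 in ES-EP cultures A and B. All MEL values lay far under all ES-EP values, and the MEL cultures were further apart than the ES-EP ones. The MEL mean was 6.64 ± 0.25 and the ES-EP mean 9.87 ± 0.12 (SD, n = 2 each), a difference of -3.23 ± 0.13 (SE) or 9.37-fold lower (limma, adjusted p = 1.77e-06). H13 read 9.007 and 9.024 in MEL, against 9.003 and 8.997 in ES-EP cultures. Its difference of 0.02 had a 95% interval of -0.17 to 0.20 (limma, adjusted p = 0.878), so the summed signal of the host moved by no more than 0.20 within that interval. The parent gene Mcts1, whose sequence resembles that of Mcts2, had a MEL mean of 7.34 ± 0.19 and an ES-EP mean of 8.38 ± 0.09 (SD, n = 2 each) and was 2.05-fold lower (adjusted p = 0.000209). How far probes of one copy also read RNA of the other was not tested. Another 2 neighbours downstream were at least 2-fold lower: Id1, an inhibitor of helix-loop-helix factors, by -1.40, and the survival gene Bcl2l1 by -2.44, with Cox4i2 between them at -0.19 (adjusted p = 0.167).

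Nap1l5, a retrocopy of the histone chaperone family in an intron of Herc3, showed another picture. The MEL mean was 4.68 ± 0.01 and the ES-EP mean 4.97 ± 0.08 (SD, n = 2 each), low in either group. It passed as lower (-0.30 ± 0.08, adjusted p = 0.0208), but not after quantile normalization (-0.07), cyclic loess (-0.08) or centring on array medians (-0.23). With the fewer arrays left without ES-EP culture A or B it did not pass either, at -0.24 and -0.35 (limma, adjusted p = 0.176 and 0.0566). The host Herc3, a ubiquitin ligase gene, read 7.23 and 7.42 in MEL, against 5.21 and 5.34 in ES-EP cultures, 4.15-fold higher (2.05 ± 0.10, adjusted p = 4.07e-06). The retrocopy thus carried the larger difference beside H13, and the host did at Nap1l5.

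In the Kcnq1 domain on distal chromosome 7, 8 genes of the list were measured. Of these 3 (37.5%) passed as higher, 2 (25.0%) as lower and 3 did not pass, beside 21.8% higher and 36.9% lower of all genes. In the wider stretch from Igf2 to Dhcr7, 25 genes were measured, of which 4 passed as higher and 11 as lower. The protein-coding genes of the domain are known as maternally expressed, several of them only in the placenta, and the paternal copy is silenced by the long RNA Kcnq1ot1. Phlda2, which restrains growth of the placenta, read 8.004 and 8.057 in MEL, against 7.047 and 7.156 in ES-EP cultures. At 0.93 ± 0.09, or 1.90-fold higher (limma, adjusted p = 0.000102), it had the largest upward difference of the 38 genes on the deposited values. Slc22a18, a transporter gene next to it, read 7.17 and 7.07 in MEL, against 6.49 and 6.48 in ES-EP cultures (0.63 ± 0.08, 1.55-fold higher, adjusted p = 0.000644). In both genes every MEL culture lay above every ES-EP culture, and the calls held under all alternatives tried.

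Tssc4, a factor of spliceosome assembly, went the other way in the same domain. It read 7.18 and 7.18 in MEL, against 7.93 and 8.06 in ES-EP cultures (-0.82 ± 0.09, 1.76-fold lower, adjusted p = 0.000208). Osbpl5, a lipid transfer protein gene, was slightly higher (0.28 ± 0.09, adjusted p = 0.0264). Tnfrsf23, a decoy receptor gene with values of 4.25 to 4.76, was slightly lower (-0.38 ± 0.10, adjusted p = 0.0155). Both small calls were lost under several alternatives (limma, adjusted p of up to 0.167 for Osbpl5 and 0.259 for Tnfrsf23). Without MEL culture A the differences were 0.23 for Osbpl5 and -0.36 for Tnfrsf23, and without ES-EP culture A they were 0.25 and -0.26, none of them passing. Quantile normalization and cyclic loess shrank Tnfrsf23 to -0.15 and -0.17. The potassium channel gene Kcnq1 differed by 0.02 (95% interval -0.17 to 0.21), the trophoblast transcription factor gene Ascl2 by 0.04 (-0.19 to 0.27, passing as higher after cyclic loess) and the histone chaperone gene Nap1l4, at 10.82 in either group, by -0.00 (-0.20 to 0.19). Cdkn1c, an imprinted cell cycle inhibitor gene of the same domain, passed as lower (-0.37 ± 0.08, adjusted p = 0.00611).

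Impact was the remaining gene that passed as higher. It is paternally expressed and encodes an inhibitor of the stress kinase GCN2. It read 9.45 and 9.56 in MEL, against 8.82 and 8.85 in ES-EP cultures, with no overlap. The difference was 0.67 ± 0.08, or 1.59-fold higher (limma, adjusted p = 0.00048), and it passed under all alternatives tried.

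In the Peg3 cluster on proximal chromosome 7 the values were low on all arrays. Zim1, a zinc finger gene expressed from the maternal copy, read 3.73 and 3.68 in MEL, against 4.45 and 4.40 in ES-EP cultures (-0.72 ± 0.08, adjusted p = 0.000285). Usp29, a paternally expressed ubiquitin protease gene, read 3.52 and 3.51 in MEL, against 4.08 and 4.18 in ES-EP cultures (-0.61 ± 0.08, adjusted p = 0.000772). Both calls held under the alternatives that kept them in the fit, yet at such levels a value was not told from background. Peg3 itself, a paternally expressed zinc finger gene, read 4.96 and 4.66 in MEL, against 4.97 and 4.99 in ES-EP cultures, and its difference of -0.17 (95% interval -0.43 to 0.10) did not pass (adjusted p = 0.239). Without MEL culture A it passed (-0.32, limma, adjusted p = 0.0255).

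**Figure D3:**
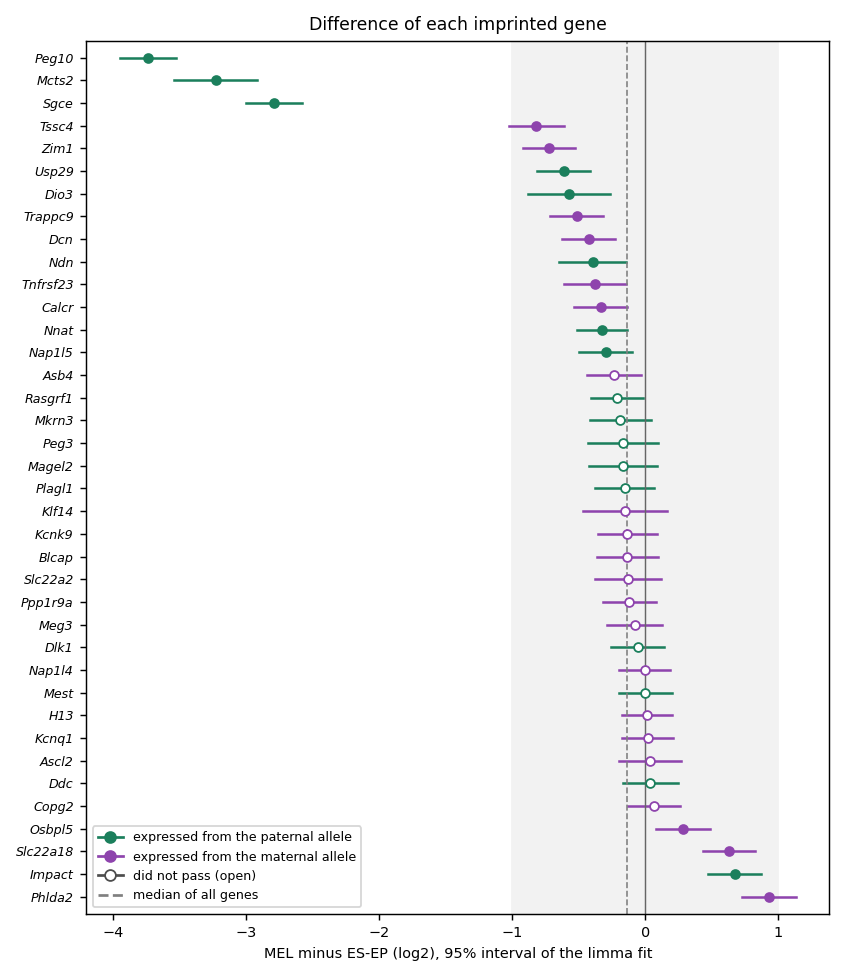
MEL minus ES-EP difference (log2, horizontal axis) of each of the 38 imprinted genes with its 95% interval, sorted, with genes known as paternally expressed in green and maternally expressed in purple. Filled points passed, open points did not, the grey band spans less than 2-fold, and the dashed line marks the median of all genes (-0.14). Peg10, Mcts2 and Sgce lie left of the band.

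In the Dlk1 to Dio3 cluster on chromosome 12, the paternally expressed Dlk1, a membrane ligand of the Notch family, averaged 6.73 in MEL and 6.79 in ES-EP cells (-0.06, 95% interval -0.25 to 0.14), and it passed as lower after quantile normalization (-0.22). The maternally expressed long RNA gene Meg3 averaged 5.04 in MEL, against 5.12 in ES-EP cultures (-0.08, -0.29 to 0.13). Dio3, the thyroid hormone inactivating deiodinase gene, passed as lower (-0.57 ± 0.13, adjusted p = 0.00838) with 4.33 as its MEL mean and 4.90 as its ES-EP mean, a call lost after quantile normalization (limma, adjusted p = 0.0591). Of the paternally expressed genes between Mkrn3 and Ube3a on chromosome 7, Ndn, the necdin gene, passed as lower (-0.39 ± 0.11, adjusted p = 0.0165), whereas Magel2 (-0.17, adjusted p = 0.226) and Mkrn3 (-0.19, adjusted p = 0.14) did not pass. Ndn did not pass after quantile normalization or cyclic loess (-0.20 each), nor without MEL culture B (-0.31) or ES-EP culture A (-0.29), with limma's adjusted p between 0.0793 and 0.133. Magel2 passed without MEL culture A (-0.30, adjusted p = 0.0293).

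The Mest cluster on chromosome 6 held 3 measured genes, and none passed. Mest, a paternally expressed hydrolase-like gene, averaged 4.67 in either group, with a difference of 0.00 (95% interval -0.20 to 0.20). Copg2, a coat protein gene of vesicle transport, averaged 9.85 in MEL and 9.78 in ES-EP cells (0.06, -0.13 to 0.26), and the Krüppel-like factor gene Klf14 averaged 7.69 in MEL and 7.85 in ES-EP cells (-0.15, -0.47 to 0.16). Klf14 passed without MEL culture A (-0.35, limma, adjusted p = 0.0229), the array on which it read 7.89, against 7.49 on the other MEL array. Mest passed as higher after quantile normalization and cyclic loess (0.23 and 0.22), and Copg2 after quantile normalization (0.21).

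A pair of genes on chromosome 15 and another on chromosome 2 added small differences. Trappc9, a gene of vesicle tethering, had a MEL mean of 7.71 ± 0.07 and an ES-EP mean of 8.22 ± 0.04 (SD, n = 2 each) and was lower (-0.51 ± 0.08, adjusted p = 0.00183), a call kept under all alternatives tried. Its neighbour Kcnk9, a potassium channel gene, did not pass (-0.13, 95% interval -0.36 to 0.09). Nnat, a paternally expressed proteolipid gene in an intron of Blcap, was lower with a MEL mean of 5.23 and an ES-EP mean of 5.55 (-0.32 ± 0.08, adjusted p = 0.0117), a call lost after quantile normalization (-0.17), cyclic loess (-0.11) and centring on array medians (-0.26). Without ES-EP culture A or B the difference of Nnat stayed at -0.30 and -0.34, with the call lost (limma, adjusted p = 0.0933 and 0.0619). Blcap did not pass (-0.13, -0.36 to 0.10). Plagl1 (a zinc finger factor gene, -0.15) and Rasgrf1 (a Ras activator gene, -0.21) did not pass. Neither did Ddc (DOPA decarboxylase, of the Grb10 cluster, 0.04) or Slc22a2 (a cation transporter gene of the Igf2r cluster, -0.13). The means of all these genes were 4.35 to 5.24. Ddc passed as higher after quantile normalization and cyclic loess (0.27 and 0.25), and Slc22a2 as lower without MEL culture A (-0.26, limma, adjusted p = 0.0498). Dcn, the matrix proteoglycan decorin, passed as lower (-0.43 ± 0.09, adjusted p = 0.00447) with a MEL mean of 4.21 and an ES-EP mean of 4.63, and not after quantile normalization (adjusted p = 0.102) or cyclic loess (0.0836).

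The dim and the bright imprinted genes were each set beside all genes of like level. Of 22 imprinted genes with a mean under the median of all features, 0 passed as higher and 9 as lower. The background among the 9292 genes of that level was 8.52% higher and 39.1% lower. With at least 2-fold also required, 0 of the 22 passed, beside 206 higher and 191 lower of those 9292 genes. The level is the mean of all 4 arrays, so a gene high in 1 group alone can leave the dim part. Peg10 and Sgce, with MEL means of 4.97 and 4.79, count as brighter through their ES-EP means of 8.70 and 7.58. The 0 is therefore partly set by the split. The 16 brighter imprinted genes had 4 higher and 5 lower members, Peg10, Sgce and Mcts2 among the lower ones. The background among the 10646 genes at or over the median was 33.3% higher and 34.9% lower.

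**Figure D4:**
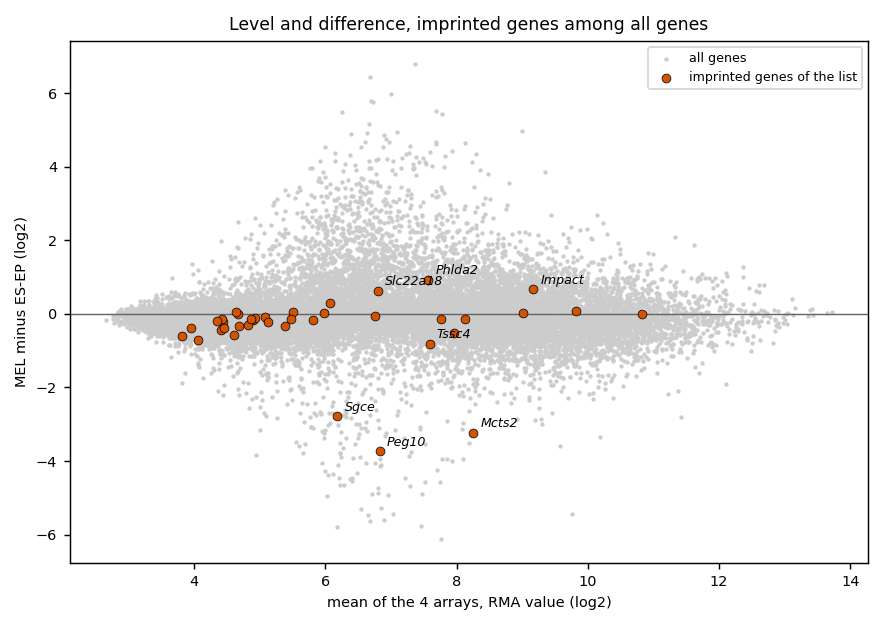
MEL minus ES-EP difference (log2, vertical axis) against the mean of the 4 arrays (log2, horizontal axis), with all genes in grey and the 38 imprinted genes in orange. Most imprinted genes lie within the grey cloud near 0, and Peg10, Sgce and Mcts2 lie well below most of it.

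By parental copy, the 3 genes of the list that were at least 2-fold lower are all known as paternally expressed. This did not extend to the further imprinted genes below. There the maternally expressed Grb10 (-5.77) and the paternally expressed Airn (-1.67) were both at least 2-fold lower. Of the 17 paternally expressed genes of the list 1 (5.88%) passed as higher and 8 (47.1%) as lower, with a median of -0.21. Of 21 maternally expressed genes 3 (14.3%) passed as higher and 6 (28.6%) as lower, with a median of -0.13. The background shares were 21.8% higher and 36.9% lower, with a median of -0.14. On the deposited values the lower share lay above its background in the paternal class and below it in the maternal class. The higher share lay below its background in both classes. The classes differed in level, with median MEL means of 4.79 (paternal) and 5.99 (maternal). Of all genes under the median level 8.52% passed as higher and 39.1% as lower. Quantile normalization removed the lower calls of Nap1l5, Dio3, Ndn and Nnat (paternal) and of Calcr, Dcn and Tnfrsf23 (maternal). Dlk1 (paternal) then passed as lower. The difference between these classes was not tested, and Peg10 and Sgce share 1 control region.

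Further imprinted genes, 54 of which were measured from a list that also holds genes with weaker or tissue-limited evidence, had 8 higher, 22 lower and 24 not passing members. These shares of 14.8% higher and 40.7% lower stand beside 21.8% and 36.9% of all genes, so the lower share lay near the background. At least 2-fold, 4 were higher and 6 were lower, against 7.38% and 4.93% of all genes. The median difference was -0.19, and that of all genes -0.14. Grb10, a maternally expressed adaptor gene that restrains insulin signalling and is the neighbour of Ddc, read 4.68 and 4.46 in MEL, against 10.32 and 10.35 in ES-EP cultures. That is the largest difference of either list, while Ddc and Cobl on its sides (0.04 and -0.20) did not pass. The chloride channel gene Ano1 was 11.6-fold lower and Bcl2l1, also described above, 5.44-fold lower. In the other direction Smoc1, a matrix protein gene, was 5.58-fold higher, the serotonin receptor gene Htr2a 5.00-fold and Herc3 4.15-fold. Airn, the paternally expressed long RNA gene that silences part of the Igf2r cluster, was named after its value was seen. It read 4.43 and 4.40 in MEL, against 5.98 and 6.19 in ES-EP cultures (-1.67 ± 0.10, adjusted p = 1.04e-05), while Igf2r differed by 0.08 (95% interval -0.12 to 0.29). Igf2 averaged 5.10 in MEL and 5.35 in ES-EP cells (-0.25, adjusted p = 0.0348), a call lost under 7 of 12 alternatives, with a difference of -0.03 after cyclic loess.

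A list on DNA methylation and imprints, which holds factors that keep imprints and also enzymes that lay methylation down (Dnmt3a, Dnmt3b) or remove it (Tet1, Tet2, Tet3), had 27 measured genes. Of these 13 (48.1%) passed as higher, 5 (18.5%) as lower and 9 did not pass, with a median difference of 0.21, beside 21.8% higher and 36.9% lower of all genes. The median level of the list was high (8.81 for MEL, 8.43 for ES-EP). Among genes at or over the median level the background was 33.3% higher and 34.9% lower. Beside that background the excess of higher calls was smaller, and it was not tested. Trim28, the corepressor that ZFP57 recruits, was 1.72-fold higher (0.78 ± 0.08, adjusted p = 0.000191). Dnmt1, which copies DNA methylation after replication, was 1.31-fold higher (0.39 ± 0.08, adjusted p = 0.0061), whereas Uhrf1, which guides it, was 2.04-fold lower (-1.03 ± 0.09, adjusted p = 7.8e-05). At least 2-fold lower besides Uhrf1 was Hells, a chromatin remodeller gene (-1.04 ± 0.13). Both lay close to the 2-fold cutoff, and under the alternatives they shrank to as little as -0.87 for Uhrf1 and -0.85 for Hells. At least 2-fold higher was Kdm1b, a histone demethylase gene needed for imprints in the egg (1.15 ± 0.10). Ctcf, the insulator factor gene, was lower (-0.41 ± 0.09, adjusted p = 0.00679), though not without ES-EP culture B (-0.37, limma, adjusted p = 0.0543). Zfp57 itself was dim, its MEL mean being 5.79 and its ES-EP mean 5.38, and it passed as higher (0.42, adjusted p = 0.00478). DNA methylation was not measured, and no link between these genes and the imprinted ones was tested.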

How the data were processed

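RNA of 4 cultures was hybridised to the Affymetrix Mouse Gene 1.0 ST array. The deposited values are log2 signals made by the authors with RMA in GeneSpring GX, per the labels; the sources used here do not give version, filters, annotation or genome build. That the scale is log2 follows from the range of the values. RMA equalises arrays, hides changes in total RNA and compresses low values, and no detection calls came with it.

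Of 35557 features, 6613 unannotated features with the lowest identifiers, taken as the array's control features, were left out and 28944 were tested. Names came from the platform annotation, updated through Entrez identifiers with RefSeq (GRCm38.p6, names and gene order only), which matched 21698 of 21789 features with 1 symbol. The brightest feature stood for a gene with several.

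Group means were fitted in limma 3.58.1 under R 4.3.3 (lmFit and eBayes, Benjamini-Hochberg over 28944 features). An exact permutation test of 4 arrays cannot give a two-sided p under 0.333. The number of arrays limits the precision. The procedure was tested on simulated data.

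Alternatives were 3 other scalings, 2 other priors, a filter on dim features, 1.5-fold and no fold criterion, features with 1 gene only, the mean of a gene's features, the letter as a block, and each culture left out. Named are all measured members, the 3 largest calls per direction on the other lists, and 8 genes chosen for their function. Other neighbours, markers and microRNA host genes were named after their values were seen. The members and lists were chosen with earlier results of these data known.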

Additional observations from a re-analysis of the deposited data

How the results depend on the processing

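The counts at 2-fold, 0 imprinted genes higher and 3 lower, came out the same under each of the 13 refits, the replicate block included, which gave 3 lower and 0 higher imprinted genes and changed no named gene's call. No label pairs the cultures, and same-lettered arrays deviated together with r = 0.11 over all features tested. The fold criterion moved the counts. With 1.5-fold, 3 were higher and 6 lower, and with no fold criterion 4 and 14. For the further imprinted genes the counts of 4 higher and 6 lower became 5 and 10 with 1.5-fold, and 8 and 22 with none. Under each of the 3 other scalings 4 of them were lower. Over all genes, 1472 higher and 982 lower became 2596 and 2899 with 1.5-fold, and 4339 and 7350 with none. Among 53 named genes, 52 of the refitted values crossed the threshold of adjusted p under 0.05 in either direction, and 0 reversed. Another 29 non-passing values changed sign and still did not pass. With 2 arrays a group and no detection calls, several small differences of dim genes shrank under quantile normalization or cyclic loess. Several calls lost on leaving out a culture, such as those of Calcr and Nnat, kept a difference of like size, with fewer arrays in the fit.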

Other observations

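The Dlk1 to Dio3 stretch also carries many microRNA precursors known to be expressed from the maternal copy. In chromosome order from Begain to Dio3, 49 genes had a feature of their own, 40 of them microRNA genes. Of these 40, 3 passed as higher in MEL and 14 as lower, and 0 differed by at least 2-fold. The background over all genes was 21.8% higher and 36.9% lower, and 7.38% and 4.93% at 2-fold. Among genes under the median level it was 8.52% higher and 39.1% lower, so the 14 lower ones lay near the background. Group means of the microRNA features reached at most 8.51. Whether a feature read precursor or host transcript was not tested. Rian, a long RNA of the same stretch, averaged 4.28 in MEL and 4.77 in ES-EP cells (-0.49, limma, adjusted p = 0.00802), and Rtl1, the retrotransposon-derived gene on the paternal copy, averaged 5.85 in MEL and 5.63 in ES-EP cells (0.22, adjusted p = 0.0846).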
